A study of Bos taurus with 8 samples.

Results

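The adipogenic and lipid handling genes PPARG, CEBPA, FABP4, CD36, LPL, PLIN2 and ADIPOQ were followed in single cells of bovine skeletal muscle and in the cultures grown from it. Members were chosen by gene symbol among the 21880 genes of the count tables. Of the 7 genes listed, 6 had a row under their symbol, and CEBPA is not analysed here. The study pooled cells of up to 10 Belgian Blue cattle, calves and adults of both sexes, into 1 Chromium 3′ library at each of 5 timepoints. Cells were taken from semitendinosus muscle directly after collagenase digestion (Muscle, 10 donors), and from unsorted cells grown on fibronectin for 72 h without serum (P0, 9 donors), each donor in its own culture. They were taken again after passages 2, 5 and 8 (P2, P5 and P8, 9 donors each), when 3 donors were grown as sorted fibro-adipogenic progenitors (FAPs) on collagen, 3 as sorted satellite cells (SCs) on laminin and 3 unsorted on fibronectin. The methods describe no adipogenic induction for these libraries. Each timepoint was 1 library, so the effect of the timepoint and of the library cannot be told apart.

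The libraries held 4395, 9591, 8966, 10405 and 2772 cells from Muscle to P8. The median number of unique molecular identifiers (UMIs, counted RNA molecules) per cell was 4184 in Muscle and between 18340 and 27240 in the cultures. Across libraries, 129 cell barcodes occurred more than once. Levels are given as CPM, the UMIs of a gene per 1000000 UMIs summed per donor and cell type, over donors with at least 10 cells of that type. Reads were counted at the 3′ end of transcripts, so tests of change and rankings of cell types compared levels of the same gene only. Marker sums and the CD36 ratios set different genes side by side, as a rough description.

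In adipogenesis, the nuclear receptor PPARG and the transcription factor CEBPA switch on the genes of the fat cell. Among these are FABP4, a carrier of fatty acids in the cytosol, PLIN2, which coats lipid droplets, and ADIPOQ, the hormone adiponectin of mature adipocytes. LPL is the lipase that frees fatty acids from lipoproteins at the vessel wall, and CD36 takes fatty acids up into cells, in muscle largely across the capillary endothelium. FAPs are the cells of muscle that can become adipocytes, and vascular endothelial cells (VECs) are the barrier that fatty acids cross on their way to the fibre.

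The cell type labels of the authors were checked against marker genes. The summed level of 5 FAP markers (PDGFRA, DCN, LUM, DPT and MFAP5) lay between 24070 and 30790 CPM in muscle FAPs and between 50.9 and 920 CPM in muscle VECs. That of 6 endothelial markers (PECAM1, CDH5, VWF, CLDN5, EGFL7 and TEK) lay between 3723 and 5128 CPM in muscle VECs and between 16.6 and 129 CPM in muscle FAPs. At P0 the FAP markers were at 2891 to 4602 CPM in FAPs and 240 to 512 CPM in VECs, and the endothelial markers at 3240 to 5103 CPM in VECs and 29.0 to 54.2 CPM in FAPs. Of 4 markers of mature adipocytes (PLIN1, PLIN4, CIDEC and LEP), CIDEC and LEP were at 0 in muscle FAPs, and the summed level in muscle FAPs was 3.09 CPM at most. In the other types the FAP markers were higher at P0 than in muscle. Their median went from 155 to 1427 CPM in SCs, from 147 to 704 CPM in SMMCs, from 85.1 to 1147 CPM in monocytes/macrophages and from 49.8 to 360 CPM in LECs. The markers of the type itself went from a median of 1354 to 157 CPM in SCs (PAX7, MYF5, ITGA7, NCAM1 and CALCR), which at P0 lay below the FAP markers in the same cells and above the 12.3 to 20.9 CPM of SC markers in P0 FAPs. In SMMCs (RGS5, ACTA2, MYH11, NOTCH3 and CNN1) they went from 11230 to 3459 CPM, and in monocytes/macrophages (PTPRC, CD68, CSF1R, CD14 and C1QA) from 8447 to 1430 CPM, where at P0 the range of 925 to 1996 CPM overlapped with that of the FAP markers, 910 to 1941 CPM. In P0 monocytes/macrophages the neutrophil markers (CSF3R, CXCR2 and S100A8) had a median of 1959 CPM, with CSF3R and CXCR2 at 0, against 30.4 CPM in muscle. In LECs the lymphatic markers (PROX1, LYVE1, FLT4, MMRN1 and CCL21) went from a median of 12060 to 1615 CPM and the vascular endothelial markers from 3318 to 4030 CPM. The part of these markers in the changes of the members was not tested. Markers of muscle fibres (ACTA1, MYH1, MB, CKM and TNNT3), whose RNA can be carried over into other cells, summed to 682 to 1124 CPM in muscle FAPs and to 0.307 to 1.74 CPM in P0 FAPs. Their median went from 304 to 0.691 CPM in VECs, from 395 to 0.274 CPM in SCs, from 169 to 2.22 CPM in SMMCs, from 272 to 0 CPM in monocytes/macrophages and from 316 to 0 CPM in LECs, and their part in the changes from Muscle to P0 was not tested. Cell types were defined by the authors from these same expression values, so differences between types are described here and not tested.

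In muscle, the members were spread over different cell types. Among the 7 types with at least 10 cells in 4 or more donors, by median, CD36 stood highest in VECs, LPL in FAPs and in monocytes/macrophages, PPARG in VECs, PLIN2 in monocytes/macrophages and FABP4 in smooth muscle and mesenchymal cells (SMMCs). ADIPOQ had no UMI in any cell of the muscle library. FAPs, the progenitors of adipocytes, had 0 FABP4 UMIs and 18 PPARG UMIs in 1231 cells.

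The adipogenic regulator PPARG had a lowest, median and highest level of 31.1, 56.6 and 114 CPM in muscle VECs of 10 donors. In muscle FAPs the same values were 0, 1.53 and 5.35 CPM, with no UMI in 4 of 10 donors. Every donor's VECs thus lay above every donor's FAPs. Monocytes/macrophages (median 20.3 CPM), lymphatic endothelial cells (LECs, 16.3 CPM in 4 donors) and lymphocytes (10.98 CPM) came next, and their ranges overlapped with each other and with that of VECs. SMMCs (median 3.77 CPM) and SCs (median 0, with UMIs in 2 of 10 donors) overlapped with FAPs. After thinning of each cell to 2000 UMIs, 10.2% of muscle VECs (exact 95% interval 8.26 to 12.5%) and 0.671% of muscle FAPs (0.290 to 1.32%) had a PPARG UMI. Without thinning, the shares were 15.0% at a median of 2778.5 UMIs per cell and 1.46% at 6213. Intervals of shares cover counting error only.

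CD36, the fatty acid uptake receptor, reached 726, 1504 and 3027 CPM (lowest, median, highest donor) in muscle VECs and 437, 792 and 1221 CPM in muscle SMMCs. The ranges of these 2 types overlapped, and both lay above every donor of FAPs, SCs, LECs, lymphocytes and monocytes/macrophages. LECs, the endothelium of lymph vessels, had 0, 52.3 and 160 CPM in 4 donors. In muscle FAPs the level was 5.81, 9.93 and 44.4 CPM. SMMCs carried 5.59 CD36 UMIs for each UMI of the endothelial markers PECAM1, CDH5, VWF and CLDN5, against 0.473 in VECs and 0.824 in FAPs. Of thinned cells, 72.7% of VECs, 60.1% of SMMCs and 3.18% of FAPs had a CD36 UMI, and 80.3%, 73.5% and 5.93% before thinning.

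Detection of PPARG was compared between muscle VECs with and without CD36. Of 603 thinned VECs with a CD36 UMI, 11.6% had a PPARG UMI (exact 95% interval 9.16 to 14.4%), against 6.61% of 227 VECs without one (3.75 to 10.7%). For the other 3 pairs looked at in muscle, the share was lower in cells with the first gene. Of thinned SMMCs 2.86% with CD36 and 7.36% without it had FABP4. Of thinned FAPs 8.48% with LPL and 9.19% without it had PLIN2, and of thinned monocytes/macrophages 42.6% and 47.4%. The intervals of each pair overlapped, and the pooled cells of 10 donors are not replicates.

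LPL, the lipase, was high in the progenitors and low in the endothelium. Muscle FAPs had 73.9, 123 and 279 CPM and monocytes/macrophages 63.2, 124 and 233 CPM (lowest, median, highest of 10 donors), and the 2 ranges overlapped almost wholly. VECs had 0, 4.16 and 14.0 CPM, from 23 UMIs in 1166 cells, below every donor's FAPs. By median, SMMCs (18.2 CPM) and SCs (11.7 CPM) lay between VECs and FAPs. Their ranges, 0 to 74.3 CPM in SMMCs and 0 to 27.9 CPM in SCs, overlapped with that of VECs, and that of SMMCs also with FAPs. In 23 tenocytes, 31 LPL UMIs gave a pooled 218 CPM, and in 45 myocytes 36 UMIs gave 217 CPM, with no donor reaching 10 cells of either type. LPL was detected in 18.8% of thinned muscle FAPs and in 0.602% of thinned muscle VECs, and in 38.3% and 1.29% before thinning.

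PLIN2, the droplet coat, was at 258, 445 and 943 CPM in muscle monocytes/macrophages and at 28.5, 44.9 and 66.5 CPM in muscle FAPs. VECs (median 68.4 CPM), SMMCs (48.5 CPM), SCs (43.8 CPM) and lymphocytes (35.7 CPM) overlapped with FAPs and stayed below monocytes/macrophages in every donor. In the 51 neutrophils, 71 PLIN2 UMIs gave a pooled 719 CPM.

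FABP4, the fatty acid carrier, was found in few muscle cells. SMMCs had 0, 22.4 and 113 CPM, from 94 UMIs in 34 of 548 cells, of which 46 UMIs lay in 2 cells and 41 in 1 of them. In VECs, 50 UMIs lay in 7 of 1166 cells, and 44 of them in 2 cells, so that 5 of 10 donors were at 0 and the highest reached 56.0 CPM. No muscle FAP had a FABP4 UMI, which allows a level of up to 0.388 CPM over the pooled FAPs. The related carrier FABP5 was at a mean of 9008 CPM in muscle VECs and 40.0 CPM in muscle FAPs.

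**Figure D1:**
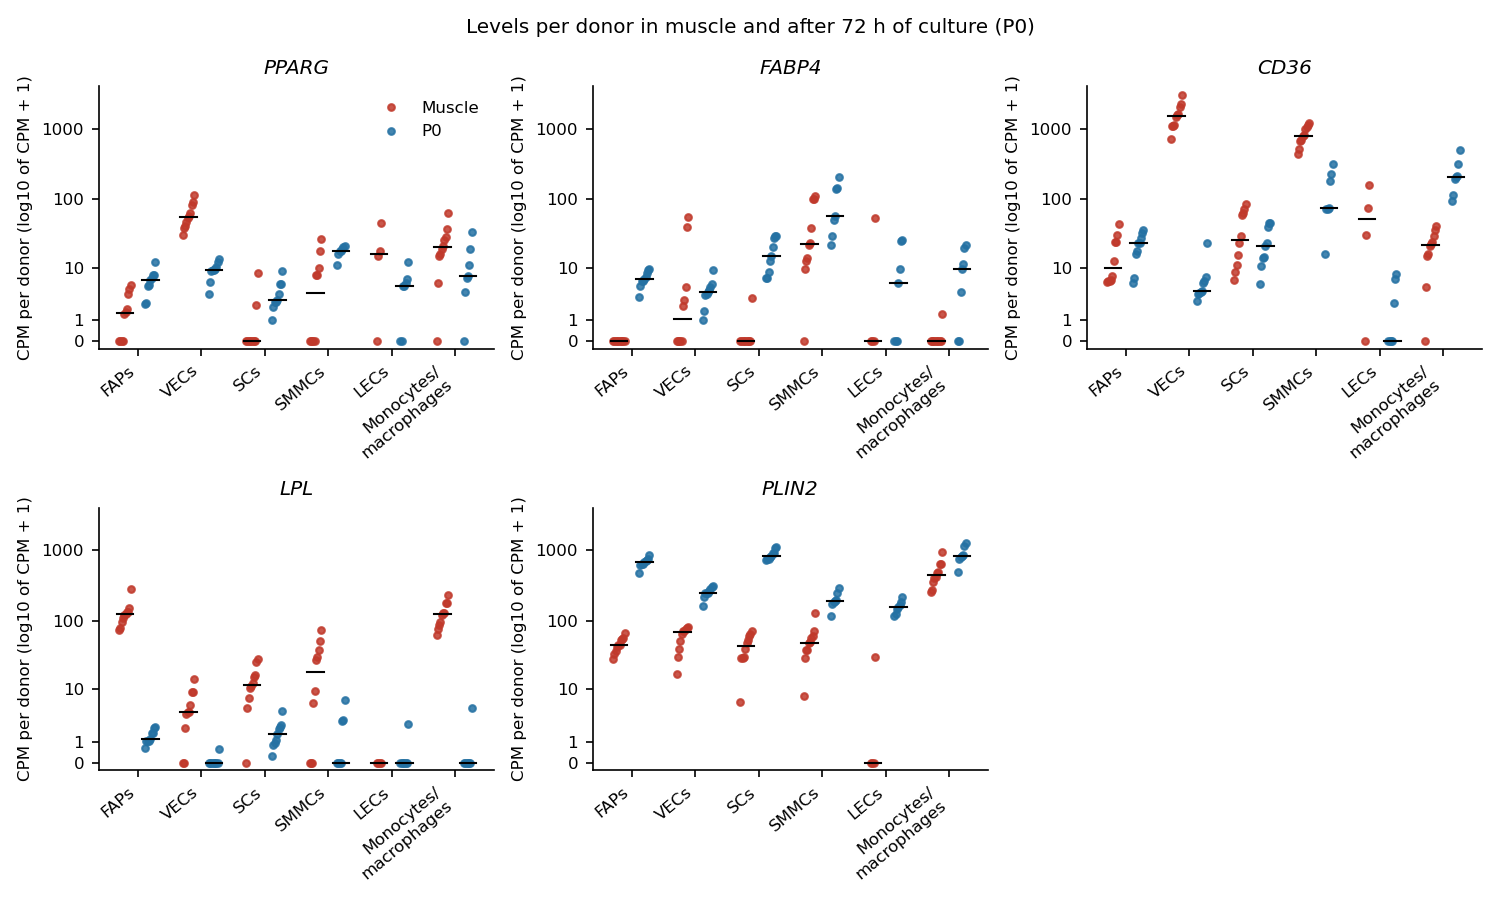
Level of 5 of the genes per donor in 6 cell types, in muscle (red) and after 72 h of culture, P0 (blue); each point is the summed CPM of 1 donor on a log10(CPM + 1) axis, and black bars are medians. CD36 in VECs falls from a median of 1504 to 4.10 CPM, LPL in FAPs from 123 to 1.16 CPM, and PLIN2 in FAPs rises from 44.9 to 673 CPM.

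The first comparison asked how the genes changed when FAPs were taken from muscle into culture. Of the 6 members, 4 passed the filter on low counts in FAPs, and 3 of them were called (edgeR, adjusted p below 0.05 and absolute log2 fold change above 1), 2 higher and 1 lower. Of all 9208 genes tested in FAPs, 43.4% were called, 20.9% higher and 22.5% lower, so a call was no rarity among genes at large.

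PLIN2 rose in FAPs. Donors lay at 28.5, 44.9 and 66.5 CPM in muscle and at 471, 673 and 848 CPM at P0 (lowest, median, highest), without overlap. The log2 fold change was 3.94 (SE 0.13, edgeR adjusted p = 1.84e-18), with a higher level in 9 of 9 donors. A PLIN2 UMI was found in 9.05% of thinned FAPs in muscle and in 67.6% at P0, and in 23.6% and 96.8% before thinning.

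LPL fell in FAPs. All 10 muscle donors (73.9 CPM or more) lay above all 9 donors at P0, where the lowest, median and highest levels were 0.635, 1.16 and 2.21 CPM. LPL decreased by 6.38 on the log2 scale (SE 0.26, edgeR adjusted p = 2.65e-15), in 9 of 9 donors. In the same step the summed tenocyte markers (TNMD, SCX, THBS4 and FMOD) in FAPs went from a median of 544 to 18.0 CPM, without overlap. Their part in the LPL change was not tested.

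PPARG rose in FAPs from a low level. At P0 the lowest, median and highest donors were at 2.33, 6.35 and 12.2 CPM, against 0, 1.53 and 5.35 CPM in muscle, and the groups overlapped. The log2 fold change was 1.52 (SE 0.57, edgeR adjusted p = 0.0189), with a higher level in 8 of 9 donors. The muscle value rests on 18 UMIs. In thinned cells the share with a PPARG UMI was 1.06% at P0 (0.811 to 1.36%) and 0.671% in muscle (0.290 to 1.32%), with overlapping intervals. Without thinning these shares were 11.3% and 1.46%. Thinned to 2000 UMIs per cell, the mean levels were 5.19 and 2.36 CPM.

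CD36 was not called in FAPs. The lowest, median and highest levels were 5.57, 23.5 and 36.4 CPM at P0 and 5.81, 9.93 and 44.4 CPM in muscle, with overlap, and the log2 difference was 0.42 (SE 0.46, 95% interval -0.48 to 1.33, edgeR adjusted p = 0.409). In FAPs without a UMI of PECAM1, CDH5, VWF, CLDN5 or PTPRC (93.5% of muscle FAPs and 71.7% of P0 FAPs), CD36 was called, at 1.10 (edgeR adjusted p = 0.0313). At P0, FAPs carried 0.783 CD36 UMIs for each UMI of the endothelial markers, while VECs carried 0.00171.

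FABP4 did not pass the filter in FAPs. It was at 0 in all 10 donors in muscle and between 3.29 and 9.66 CPM (median 6.54) in the 9 donors at P0, where 972 UMIs lay in 572 of 5756 cells. Over the pooled cells the level was at least 18.4-fold higher at P0, against a floor of 3 counts in muscle. The groups did not overlap (exact two-sided permutation test over donors, p = 2.17e-05, the smallest these groups can give, and 0.000141 after adjustment over 13 such tests). These 13 tests cover each member and cell type with at least 10 UMIs that the filter had left out, and were added after the values were seen. They compared the timepoints as separate groups and did not pair the values of a donor. At P0, 1.68% of thinned FAPs (1.36 to 2.05%) and 1.21% of thinned VECs (0.581 to 2.21%) had a FABP4 UMI, with overlapping intervals. Before thinning the shares were 9.94% and 4.81%. The 5% of P0 FAPs with most FABP4 held 70.7% of its UMIs.

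ADIPOQ was counted 5 times in 5756 FAPs at P0, 3 times in 4987 FAPs at P2 and once in 6819 FAPs at P5, and in no other cell. No test was made.

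The same comparison was made in VECs, which were present at P0 while no cell carried their label from P2 on. Of the 6 members, 3 were tested and all 3 were called, 1 higher and 2 lower, against 35.1% of 5896 genes tested, 15.6% higher and 19.6% lower.

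CD36 fell in VECs, the largest change of any member among the 6 cell types tested in edgeR. The lowest, median and highest donors went from 726, 1504 and 3027 CPM in muscle to 2.73, 4.10 and 23.5 CPM at P0, without overlap. The level decreased by 8.04 on the log2 scale (SE 0.38, edgeR adjusted p = 7.29e-13), in 9 of 9 donors. Of P0 VECs, 48.3% had no UMI of PDGFRA, LUM, DPT or PTPRC, and in these the change was -8.56.

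PPARG also fell in VECs, from 31.1, 56.6 and 114 CPM to 3.60, 9.23 and 13.6 CPM (lowest, median, highest). The groups did not overlap, and the log2 fold change was -2.65 (SE 0.22, edgeR adjusted p = 2.03e-11, lower in 9 of 9 donors).

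PLIN2 rose in VECs from 16.7, 68.4 and 82.0 CPM to 162, 251 and 309 CPM. The log2 fold change was 2.08 (SE 0.17, edgeR adjusted p = 1.29e-11, higher in 9 of 9 donors).

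LPL and FABP4 did not pass the filter in VECs. LPL had 23 UMIs in muscle and 1 at P0, with means over donors of 5.21 and 0.0641 CPM (exact permutation test, p = 0.00119, adjusted 0.00387). In cells thinned to 2000 UMIs these LPL means were 2.81 and 0 CPM. FABP4 had 50 UMIs at each timepoint, with means of 10.5 and 4.17 CPM (exact permutation test, p = 0.524), and the muscle value rests on 2 cells. In thinned cells the FABP4 means in VECs were 5.16 and 7.17 CPM, the reverse order.

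Whether VECs and FAPs changed differently was tested as the VEC change minus the FAP change. Of 4 members tested, 3 were called, against 25.6% of 8613 genes. CD36 differed by -8.43 on the log2 scale (SE 0.58, edgeR adjusted p = 2.60e-14), PPARG by -4.12 (SE 0.54, adjusted p = 3.16e-08) and PLIN2 by -1.79 (SE 0.22, adjusted p = 6.49e-09). PPARG moved in opposite directions in these types, and PLIN2 rose in both but less in VECs. At P0 the PPARG levels of VECs and FAPs overlapped. LPL was not called (log2 0.75, SE 4.86, adjusted p = 0.921), nor by DESeq2 (log2 1.76, SE 0.82, adjusted p = 0.0599), and VECs at P0 had 1 LPL UMI.

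**Figure D2:**
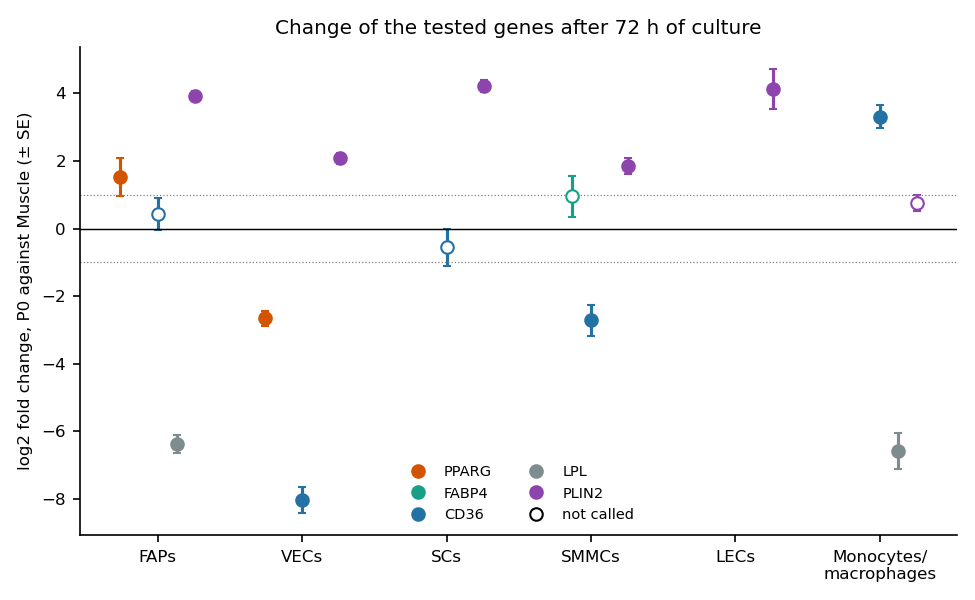
Log2 fold change of each tested gene between P0 and Muscle, with its SE, by cell type; filled points were called, open points were not, and dotted lines mark log2 values of -1 and 1. PLIN2 lies above 0 in all 6 types, while CD36 lies at -8.04 in VECs and at 3.31 in monocytes/macrophages.

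In the other cell types, whose FAP markers also were higher at P0, PLIN2 was again higher at P0. SCs, the stem cells of muscle fibres, had a median of 43.8 CPM in muscle and 841 CPM at P0 (log2 fold change 4.21, SE 0.18, edgeR adjusted p = 7.22e-16, 9 of 9 donors). It was the only call among 2 members tested in SCs, against 34.3% of 5221 genes. In SMMCs the PLIN2 change was 1.85 (SE 0.24, adjusted p = 5.11e-07, 7 of 7 donors). In LECs it was 4.13 (SE 0.59, adjusted p = 2.13e-06, 3 of 3 donors), the only member tested there, against 29.6% of 3034 genes. Of the 4 LEC donors in muscle 3 were at 0 and donor 10 had 2 PLIN2 UMIs, and without donor 10 the LEC value was 7.93, a fitted value against a group at 0, and with donors as a replicate block it was 7.81. Over all LECs, donors with fewer than 10 cells included, 9 PLIN2 UMIs in muscle and 284 at P0 gave pooled levels of 20.3 and 154 CPM. In monocytes/macrophages PLIN2 went from a median of 445 to 822 CPM, which passed the p threshold but not that of fold (log2 0.76, SE 0.23, adjusted p = 0.00746, 7 of 7 donors).

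CD36 took different directions in the other types. SMMCs fell from 437, 792 and 1221 CPM to 15.8, 74.2 and 316 CPM (log2 -2.72, SE 0.45, edgeR adjusted p = 5.49e-05, lower in 7 of 7 donors), and the groups did not overlap. With at least 30 cells a donor the SMMC value was -3.70. In SMMCs 2 of 3 members were called, against 36.4% of 3454 genes. Monocytes/macrophages rose from 0, 22.0 and 42.1 CPM to 94.7, 205 and 494 CPM (log2 3.31, SE 0.34, adjusted p = 2.83e-08, higher in 7 of 7 donors), again without overlap. In SCs the difference was -0.56 (SE 0.55, 95% interval -1.63 to 0.52, adjusted p = 0.367), with 4 of 9 donors higher. In LECs, which were not tested in edgeR, the means were 66.3 CPM in muscle and 2.44 CPM at P0 (exact permutation test, p = 0.0485, adjusted 0.0701).

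LPL was also lower at P0 in monocytes/macrophages, SCs and SMMCs, while LECs had 0 UMIs in muscle and 1 at P0. In monocytes/macrophages, where 2 of 3 members were called against 34.6% of 2896 genes, it decreased by 6.59 on the log2 scale (SE 0.52, edgeR adjusted p = 1.90e-11, 7 of 7 donors), and 6 of 7 donors were at 0 at P0. With 1 LPL UMI at P0, the size of this fall is a fitted value against a group near 0. The pooled level was 139 CPM in muscle, and the floor of 3 counts at P0 was 2.24 CPM. The means in SCs were 13.1 CPM in muscle and 1.74 CPM at P0 (exact permutation test, p = 0.000368, adjusted 0.00159), and those in SMMCs 23.6 and 1.80 CPM (p = 0.026, adjusted 0.0426).

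By its median, FABP4 stayed highest in SMMCs at P0, at 22.2, 56.8 and 211 CPM in 7 donors. Of its 540 UMIs there, in 88 of 365 cells, 205 lay in 2 cells and 115 in 1 of them. Thinned shares with FABP4 were 4.66% of muscle SMMCs (2.83 to 7.18%) and 6.11% at P0 (3.87 to 9.11%), with overlapping intervals. The SMMC change was 0.95 (SE 0.60, edgeR adjusted p = 0.163), with a higher level in 7 of 7 donors, and with donors as a replicate block it was called, at 1.04 (adjusted p = 0.00978). In SCs FABP4 went from 1 UMI in muscle to 881 at P0, with means of 0.310 and 17.5 CPM and no overlap between groups (exact permutation test, p = 2.17e-05, adjusted 0.000141). The FABP4 means went from 0.144 to 9.45 CPM in monocytes/macrophages (exact permutation test, p = 0.00679, adjusted 0.0177) and from 13.4 to 9.51 CPM in LECs (p = 0.806, adjusted 0.806). The monocyte/macrophage values rest on 1 UMI in 403 muscle cells and 10 UMIs in 8 of 141 cells at P0, where 2 of 7 donors were at 0. The thinned share of P0 SCs with FABP4, 2.85% (2.21 to 3.62%), lay above that of P0 FAPs, and before thinning it was 18.4%. For PPARG, the means rose from 7.00 to 17.7 CPM in SMMCs (exact permutation test, p = 0.0128, adjusted 0.0277) and from 1.05 to 3.82 CPM in SCs (p = 0.0262, adjusted 0.0426). The muscle values rest on 18 PPARG UMIs in SMMCs and 3 in SCs. Thinned shares with PPARG were 2.21% in muscle and 2.50% at P0 in SMMCs, and 0.333% and 0.834% in SCs. The intervals overlapped in both types. The PPARG means were lower at P0 in LECs, 19.6 and 4.92 CPM (exact permutation test, p = 0.0848, adjusted 0.110), and in monocytes/macrophages, 23.3 and 11.7 CPM (p = 0.141, adjusted 0.167), neither past the threshold.

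The genes were then followed in FAPs through passaging, in the 6 donors whose cultures were sorted as FAPs or left unsorted. Between P0 and P2, 5 members were tested and 2 were called, both lower, against 23.3% of 11439 genes. Markers of other types moved in FAPs in the same step, here over all FAP donors, 9 at P0 and 8 at P2, those of SC cultures included. The SMMC markers went from a median of 57.5 to 592 CPM and the tenocyte markers (TNMD, SCX, THBS4 and FMOD) from 18.0 to 136 CPM. The FAP markers went from 3520 to 12680 CPM. The part of these in the members' changes was not tested. CD36 in the 6 donors tested had a mean of 24.1 CPM at P0 and 1.22 CPM at P2 (log2 -4.28, SE 0.60, edgeR adjusted p = 3.01e-05, lower in 6 of 6 donors). PPARG had means of 6.06 and 2.25 CPM (log2 -1.30, SE 0.42, adjusted p = 0.0133, lower in 6 of 6 donors). In the 3 sorted FAP cultures alone the PPARG difference was -0.42 (adjusted p = 0.533) and was not called.

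FABP4 in FAPs passed the p threshold but not that of fold (means 6.60 and 11.6 CPM, log2 0.95, SE 0.31, edgeR adjusted p = 0.0154, 4 of 6 donors higher). PLIN2 in FAPs likewise passed the p threshold alone, with means of 707 and 501 CPM (log2 -0.35, SE 0.09, adjusted p = 0.00317, lower in 6 of 6 donors), and remained above every muscle donor. LPL was not called (log2 0.69, SE 0.55, adjusted p = 0.276).

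From P2 to P5 and from P5 to P8, 0 of the 4 members tested were called in FAPs by edgeR and 0 by DESeq2, and 1 in each step, PLIN2, had an unadjusted p below 0.05. The background was 3.34% of 11731 genes and 2.02% of 10929 genes. PLIN2 had means of 501, 350 and 448 CPM at P2, P5 and P8, with a log2 difference of -0.41 (SE 0.08, edgeR adjusted p = 0.00529) in the first step and 0.23 (SE 0.09, adjusted p = 0.100) in the second. Over all FAP donors, PPARG had a median of 0.784 CPM at P5 and 0.335 CPM at P8, and CD36 of 0.0648 and 0.163 CPM. Over FAP donors of all cultures FABP4 ranged from 5.40 to 42.9 CPM from P2 to P8. The highest FABP4 value was that of an unsorted culture at P5.

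The 4 mature adipocyte markers were also followed in passaged FAPs. LEP, which encodes the hormone leptin, had 0 UMIs in muscle FAPs and 4 at P0, and medians over donors of 17.2 CPM at P2, 22.9 CPM at P5 and 27.0 CPM at P8. Donors ranged from 0 to 21.9 CPM at P2, from 0.864 to 52.5 CPM at P5 and from 0.767 to 50.8 CPM at P8. LEP was found in 1321 of 4987 FAPs at P2. PLIN1, a coat of large droplets, had medians of 0.569, 0.579 and 0.447 CPM at these passages, near the 0.581 CPM of muscle. The droplet protein CIDEC had 0 UMIs in muscle FAPs and 5 at P0, with medians of 0.0540 CPM at P2 and 0.0413 CPM at P5. At P8 CIDEC had 23 UMIs in 22 of 2616 cells, a median of 0.275 CPM and a highest donor value of 1.72 CPM. PLIN4 had 2 UMIs in all passaged FAPs. These markers were described one by one after their summed level was seen, with no test. In SCs their summed level had medians of 0.519 CPM at P0, 9.46 CPM at P2, 2.64 CPM at P5 and 7.51 CPM at P8. The SC range at P2, 1.42 to 27.7 CPM, overlapped with the 2.67 to 22.5 CPM of FAPs.

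**Figure D3:**
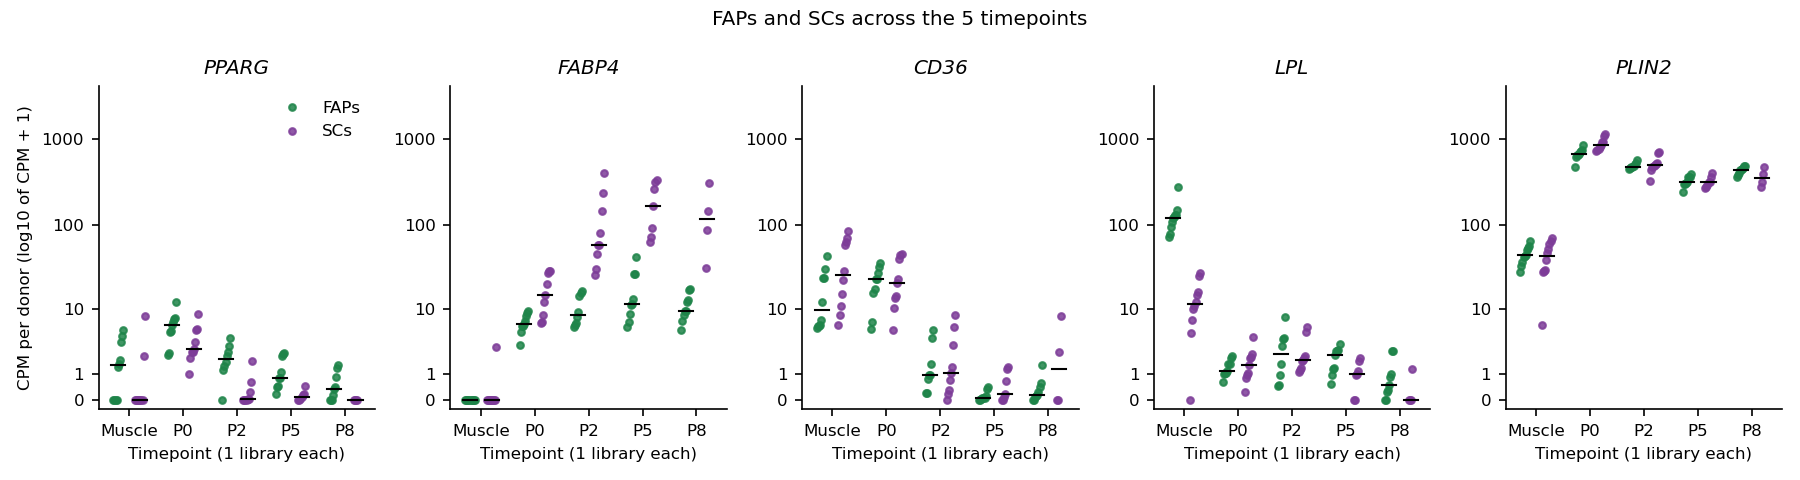
Level of 5 of the genes per donor in FAPs (green) and SCs (purple) at the 5 timepoints, on a log10(CPM + 1) axis with medians as black bars. FABP4 in SCs reaches medians of 59.7 CPM at P2 and 168 CPM at P5, while FAPs stay at 8.60 and 11.7 CPM.

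FABP4 rose in SCs between P0 and P2, and whether it did so more than in FAPs was not tested. Markers of other types moved with it in SCs. From P0 to P2 the median summed level of the SMMC markers went from 84.5 to 620 CPM, that of the FAP markers from 1427 to 4294 CPM and that of the muscle fibre markers from 0.274 to 112 CPM, while the SC markers went from 157 to 374 CPM. The part of these in the FABP4 change was not tested. The SC comparisons of passages were added after the values were seen. From P0 to P2, FABP4 in SCs went from 6.75, 15.2 and 29.6 CPM to 26.1, 59.7 and 407 CPM (lowest, median, highest of 9 donors), and the groups overlapped slightly. The log2 fold change was 2.83 (SE 0.52, edgeR adjusted p = 2.56e-04, higher in 9 of 9 donors), and 3.71 in the 3 sorted SC cultures alone. In the same step CD36 decreased by 4.22 on the log2 scale in SCs (SE 0.70, edgeR adjusted p = 9.84e-05, lower in 9 of 9 donors). The CD36 value was -5.26 in the sorted SC cultures alone and -3.51 by DESeq2. Of 3 members tested these 2 were called, against 10% of 9793 genes. PLIN2 in SCs had a log2 difference of -0.72 (SE 0.13, edgeR adjusted p = 2.52e-04, lower in 9 of 9 donors), within the fold threshold.

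At P2 the 3 sorted SC cultures had FABP4 levels of 148, 234 and 407 CPM in SCs, above those of the 6 other cultures, which lay between 26.1 and 81.2 CPM. At P5 the sorted SC cultures had 64.0, 168 and 320 CPM, and the 3 unsorted cultures 74.0, 266 and 330 CPM, with overlapping ranges, and the SCs of 1 sorted FAP culture 92.2 CPM. From P2 to P5, 0 of 2 members tested in SCs were called by edgeR and 0 by DESeq2, and 1, PLIN2, had an unadjusted p below 0.05. PLIN2 also passed the adjusted p threshold but not that of fold (log2 -0.68, SE 0.15, edgeR adjusted p = 0.0317, lower in 7 of 7 donors). The background was 0.44% of 9780 genes. FABP4 differed there by 0.67 (SE 0.54, edgeR adjusted p = 0.530), and by -0.47 in the sorted SC cultures alone.

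FABP4 was uneven among SCs. At P2, 22515 FABP4 UMIs lay in 2349 of 3979 SCs, and the 5% of SCs with most of it held 49.4%. These cells are pooled over donors whose SC levels ran from 26.1 to 407 CPM, so differences between donors are part of that share. Of thinned P2 SCs 21.5% had a FABP4 UMI, against 2.15% of thinned P2 FAPs, and before thinning the shares were 59.0% and 20.1%. SCs with FABP4 had less MYOG, a regulator of myogenic differentiation, than SCs of the same donor without it. At P2 the median MYOG level over 8 donors was 5.48 CPM with and 172 CPM without FABP4, lower in all 8 donors, and at P5 57.6 and 242 CPM, lower in all 5 donors. DES, the muscle filament desmin, had medians of 49.7 and 113 CPM at P2, and was lower with FABP4 in the same 8 donors. Among markers of SCs, the integrin ITGA7 had medians of 109 CPM with and 156 CPM without FABP4 at P2 and was lower in 8 of 8 donors, and at P5 in 5 of 5. The adhesion molecule NCAM1 had medians of 49.5 and 88.3 CPM at P2, higher with FABP4 in 1 of 8 donors, and in 0 of 5 at P5. MYF5, a transcription factor of myogenic cells, had medians of 144 and 128 CPM at P2, higher with FABP4 in 4 of 8 donors, and of 154 and 132 CPM at P5, higher in 5 of 5. At P0 MYF5 was higher with FABP4 in 7 of 7 donors, DES in 2, and ITGA7 and NCAM1 in 1 each. MYOG was near the floor at P0, with medians of 0 CPM with and 0.284 CPM without FABP4, and higher with it in 1 of 7 donors. PLIN2 was higher in SCs with FABP4 in 7 of 7 donors at P0, 6 of 8 at P2 and 5 of 5 at P5. PAX7, the transcription factor of SCs, was higher with FABP4 in 4 of 8 donors at P2 and in 3 of 5 at P5. Cells with a detected UMI tend to be the deeper cells, and these splits of cells were not tested.

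Of the wider pathways, 6 lists of genes other than the members were counted in FAPs and VECs. In FAPs, 8 of 13 tested adipogenic regulators were called lower and none higher. The median log2 fold change of the 13 was -1.77, while all tested genes had a median of 0.03. Past the p threshold alone, CEBPD was higher (means 833 and 1318 CPM, log2 0.77, SE 0.24, edgeR adjusted p = 0.00722, 7 of 9 donors). RXRA was lower past that threshold alone (log2 -0.78). Of 6 tested inhibitors of adipogenesis 4 fell and none rose. KLF4, a regulator acting early in adipogenesis, went from a mean of 306 to 28.1 CPM in FAPs (log2 -3.37, SE 0.19, edgeR adjusted p = 3.68e-13, lower in 9 of 9 donors). DLK1, the preadipocyte factor that holds adipogenesis back, went from 974 to 1.12 CPM (log2 -9.60, SE 0.44, adjusted p = 1.55e-13, lower in 9 of 9 donors). Of 11 mature adipocyte genes with a row, only AGPAT2, an enzyme of glycerolipid synthesis, and CIDEA, a droplet protein, passed the filter. AGPAT2 rose from 13.5 to 31.9 CPM (log2 1.34, SE 0.17, adjusted p = 6.64e-08, 9 of 9 donors), and CIDEA, named here because only these 2 were tested, was not called (log2 0.15, adjusted p = 0.528).

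Genes of fatty acid uptake and transport went both ways in FAPs, with 6 of 14 higher and 3 lower and a median of 0.63. FABP3, the fatty acid carrier of heart and muscle, rose from 12.5 to 594 CPM (log2 5.61, SE 0.20, edgeR adjusted p = 8.70e-17, higher in 9 of 9 donors). MEOX2, a transcription factor of endothelial fatty acid transport that was also counted in FAPs, fell from 402 to 64.3 CPM (log2 -2.54, SE 0.12, adjusted p = 1.04e-15, 9 of 9 donors). Of 8 lipid droplet and lipolysis genes 2 rose and 3 fell, with a median of -0.52. PLIN3, a further droplet coat, rose from 14.7 to 42.1 CPM (log2 1.62, SE 0.14, adjusted p = 7.71e-11). MGLL, which cleaves monoglycerides, fell from 22.1 to 1.17 CPM (log2 -4.20, SE 0.19, adjusted p = 4.64e-16). Among 13 genes of fatty acid oxidation and PPAR targets 1 fell, and the median was 0.10. The 1 was PDK4, a brake on glucose oxidation and a known PPAR target, from 92.0 to 1.76 CPM (log2 -5.61, SE 0.37, adjusted p = 2.87e-11). PLIN3, MGLL and PDK4 changed in the same direction in 9 of 9 donors.

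In VECs, 7 of 12 genes of fatty acid uptake and endothelial transport fell and 4 rose, with a median of -1.42, while the median of all tested genes was -0.02. FABP5 fell from 9008 to 128 CPM (log2 -6.18, SE 0.31, edgeR adjusted p = 1.91e-12, lower in 9 of 9 donors). VLDLR, a receptor for lipoproteins, rose from 8.79 to 179 CPM (log2 4.55, SE 0.27, adjusted p = 1.53e-13, higher in 9 of 9 donors). Of 8 adipogenic regulators 4 fell, KLF4 most, from 885 to 10.7 CPM (log2 -6.34, SE 0.27, adjusted p = 8.88e-15), with a list median of -0.92. All 6 tested inhibitors fell, with a median of -2.96. Among them was KLF2, a flow-responsive factor of endothelium, from 52.5 to 1.33 CPM (log2 -5.46, SE 0.44, adjusted p = 7.45e-11). The only mature adipocyte gene tested, the lipase LIPE, was lower, at -1.63 (adjusted p = 4.20e-08, 8 of 9 donors).

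Of 4 lipid droplet and lipolysis genes tested in VECs 2 fell and none rose, with a median of -1.40. PNPLA2, the lipase that starts the breakdown of droplets, fell from 70.8 to 11.4 CPM (log2 -2.71, SE 0.25, edgeR adjusted p = 1.84e-10). Of 8 oxidation genes and PPAR targets PDK4 and CPT1A, which lets fatty acids into mitochondria, fell and none rose, with a median of 0.09. PDK4 fell from 122 to 3.61 CPM (log2 -5.08, SE 0.53, adjusted p = 7.83e-08). KLF4, KLF2, PNPLA2 and PDK4 were lower in 9 of 9 donors. The counts of the lists in both cell types are to be read beside the shares of all genes called, 43.4% in FAPs and 35.1% in VECs. Muscle cells were taken directly after collagenase digestion, and the part of digestion in the changes of KLF4 and the other list genes was not tested.

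**Figure D4:**
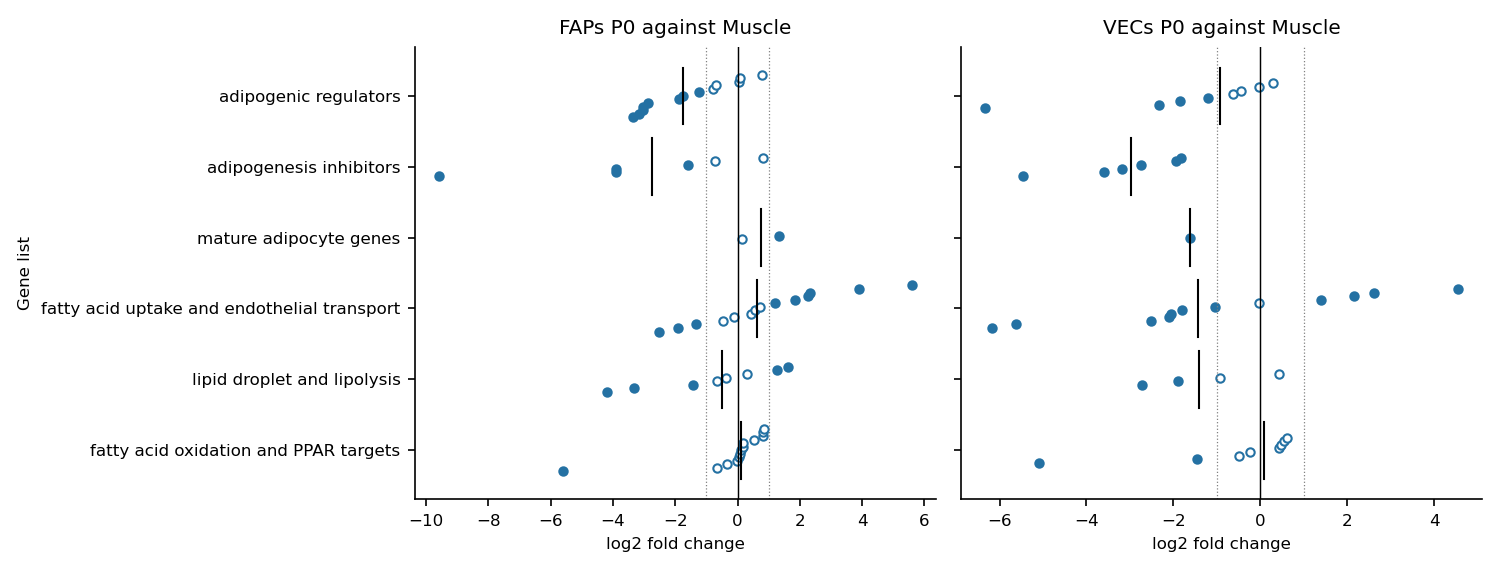
Log2 fold change between P0 and Muscle of each tested gene of 6 lists, in FAPs (left) and VECs (right); filled points were called, open points were not, and black bars are list medians. The inhibitors have the lowest median in both types, -2.75 and -2.96, and the oxidation genes lie between -1 and 1 apart from PDK4 and, in VECs, CPT1A.

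The genes whose pattern was most like that of each member were sought over 19 combinations of cell type and timepoint with at least 3 donors, by Pearson's r of mean log2(CPM + 1) among 10660 genes. For PPARG these were DUSP5 (0.85), CCDC82 (0.84) and RAB8A (0.84), and for FABP4 OGDH (0.84), TPM1 (0.84) and LPP (0.83). For CD36 they were WDR82 (0.86), OSBPL8 (0.86) and MLX (0.85), and for LPL ZDHHC1 (0.91), NINJ2 (0.90) and TWSG1 (0.88). For PLIN2 they were TFE3 (0.93), MBOAT7 (0.93) and MTCH2 (0.93). The combinations share 5 libraries and 10 donors, and the values describe these samples only.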

How the data were processed

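The authors aligned reads of 5 Chromium 3′ libraries to build ARS-UCD1.2 with Cell Ranger 6.0.1 and deposited raw UMI counts per gene and barcode. Cells that passed their quality control, demuxlet donors and cell type labels came from their combined cell table, of which 11 columns were not used. Doublets within a donor were not sought. A second deposited expression table, not of raw counts, was not used. The records of P0 name SCs, FAPs and unsorted cells, and the study's methods unsorted cells. All P0 cells were treated as unsorted.

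For each cell type, a donor's counts were added up (at least 10 cells) and tested with edgeR 4.0.16 (quasi-likelihood, robust, TMM, filterByExpr, Benjamini-Hochberg over all genes tested), with SE as log2 fold change over the root of F. A gene was called when the adjusted p was below 0.05 and the log2 fold change beyond 1 in either direction. UMIs per sum ranged from 56121 to 31783784, and the number of molecules limits precision. Donors are the replicates. A donor number marks the same animal, and the correlation of its deviations between timepoints ranged from -0.14 to 0.65. Alternatives were DESeq2 1.42.0, no filter, 30 cells, thinning, donor blocks, cells without markers of another type, and subsets of cultures. Thinning used 2000 UMIs per cell. The FAP and VEC fits were tested on simulated counts.

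The members and lists were chosen with earlier results of these data known. Named beside the members were, per list, the called genes with the largest rise and fall in FAPs and VECs that moved the same way in every donor, and the 3 genes of most similar pattern per member. Outside this rule, CIDEA, LIPE, CPT1A, LEP and the genes compared between SCs with and without FABP4 were named after their values were seen. The lists hold 5 symbols without a row, DGAT2, GPIHBP1, HILPDA, G0S2 and PNPLA3. Calves were not compared with adults, which was planned only if the cell table used here held an age. It holds none, though the paper lists each donor as calf or adult. No sequences or coordinates were used.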

Additional observations from a re-analysis of the deposited data

Results flagged for a closer look

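Among 62 sets of donors (1 gene in 1 cell type at 1 timepoint), the highest donor stood apart from the others in 3, where chance flags about 1 in 20. These were CD36 in VECs of donor 9 at P0, at 23.5 CPM from 16 UMIs, LPL in muscle FAPs of donor 2, at 279 CPM, and PLIN2 in muscle SMMCs of donor 8, at 130 CPM from 20 UMIs.

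The changes of 3 genes from Muscle to P0 differed between VECs and FAPs by a test of the difference itself (edgeR interaction term). The VEC change minus the FAP change was -8.43 for CD36, -1.79 for PLIN2 and -4.12 for PPARG on the log2 scale, and each was called.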

How the results depend on the processing

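No member tested by edgeR changed direction from Muscle to P0 under any alternative. Without a filter on low counts, genes called numbered 6925 in FAPs, 5030 in VECs, 5286 in SCs, 4216 in SMMCs, 1863 in LECs, 3389 in monocytes/macrophages and 2097 in SCs from P0 to P2, where the filter's removal added genes to the test. The FAP and VEC counts were of 17078 and 15179 genes tested, against 3997 of 9208 and 2071 of 5896 with the filter. Members called without the filter were 4 of 6 tested in FAPs and 4 of 5 in VECs. They were 4 in SCs, 4 in SMMCs, 2 in LECs and 4 in monocytes/macrophages. With sums thinned to the smallest total, fewer genes passed the filter, and 1639 were called in FAPs, 1190 in VECs, 1005 for the VEC minus FAP difference, 533 in SCs, 505 in SMMCs, 342 in LECs and 485 in monocytes/macrophages. Thinning gave 97 from P5 to P8 in FAPs, 382 from P0 to P2 in SCs and 11 from P2 to P5 in SCs. Members called in thinned sums were 1 in monocytes/macrophages, 1 in SCs from P0 to P2 and 0 in LECs, where 0 were tested. In the thinned fits of FAPs and VECs PPARG did not pass the filter, nor did it in FAPs without markers of another type.

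With at least 30 cells 2177 genes were called in SMMCs. From P2 to P5 and P5 to P8, sorted FAP cultures alone gave 94 and 37, and FAPs of all cultures 76 and 46. From P0 to P2 sorted FAP cultures alone gave 1 member. SCs from P2 to P5 gave 81 by DESeq2, 215 with a replicate block and 367 in sorted SC cultures alone, and the cause was not tested. There FABP4 was -0.47 (adjusted p = 0.661). LPL in FAPs from P2 to P5, near 0, was 0.024 in thinned sums and 0.11 with a replicate block. The block changed the call of 1 named gene, FABP4 in SMMCs (1.04). Leaving out 1 LEC donor at a time gave 650 to 935 genes called and PLIN2 changes of 3.74 to 7.93. Thinning of cells moved mean levels at P0 to 13.7 CPM for PPARG and 299 CPM for PLIN2 in VECs, and to 9.31 CPM in FAPs and 7.17 CPM in VECs for FABP4. Comparisons of calves with adults, and 30 cells for LECs and monocytes/macrophages, were not run. Other called changes moved by over 1.5-fold without losing their call. These were CD36 in the VEC minus FAP difference (-9.47 without markers of another type), CD36 in FAPs from P0 to P2 (-3.51 in sorted FAP cultures alone), and, in thinned sums, LPL in monocytes/macrophages (-5.45) and VLDLR in VECs (3.94). The SC passages and the SMMCs without endothelial markers were added after the values were seen. Of 302 values of named genes under alternatives, 296 kept their direction and side of the threshold. Genes that did not pass the filter under an alternative are not among the 302. In FAPs from Muscle to P0 the setting of at least 30 cells left the fit unchanged, so its values could only stay the same.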

Other observations

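At P0, where all donors were in 1 library, the level of a gene in FAPs was compared with that in SCs and in VECs of the same donor, over 9 donors and 8 relations chosen after the values were seen. CD36 in FAPs rose with CD36 in SCs (Pearson's r = 0.88, exact permutation p = 0.00211, adjusted 0.00844, and Spearman's rho = 0.90, p = 0.00203, adjusted 0.0162). Without the 2 donors farthest from the median r was 0.82. With CD36 in VECs r was 0.33 (exact permutation p = 0.437) and rho 0.55 (p = 0.133), and r was 0.13 without the 2 farthest donors. Whether the relations with SCs and with VECs differed was not tested. At P0 the FAP markers had a median of 1427 CPM in SCs and 389 CPM in VECs. Their part in the relations of this section was not tested.

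PLIN2 in FAPs rose with PLIN2 in VECs (r = 0.94, exact permutation p = 0.000185, adjusted 0.00148, and rho = 0.87, p = 0.00451, adjusted 0.0180), with r = 0.81 without the 2 farthest donors. With PLIN2 in SCs r was 0.77 (exact p = 0.0108, adjusted 0.0288) and rho 0.70 (p = 0.0433, adjusted 0.0865), and r fell to 0.51 without the 2 farthest donors. For FABP4 in FAPs and SCs, r was 0.70 (exact p = 0.0370, adjusted 0.0740) and rho 0.75 (p = 0.0255, adjusted 0.0680), and for FABP4 in FAPs and VECs r was 0.23 (exact p = 0.552) and rho 0.37 (p = 0.336). PPARG showed no relation past the threshold with SCs (r = 0.07, exact p = 0.855, and rho = -0.13, p = 0.743) or VECs (r = -0.15, exact p = 0.701, and rho = -0.03, p = 0.948). Without the 2 farthest donors r was -0.05 with SCs and -0.45 with VECs. Each donor was cultured on its own before pooling, so donor and culture cannot be told apart.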
